A study of Mus musculus with 4 samples.

Results

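The cells described here were chondrocytes from injured mouse tibial muscle at 7 days post injury (dpi) that carried *Col10a1*, the gene for collagen X, a collagen made by hypertrophic chondrocytes. They were chosen on raw unique molecular identifiers (UMIs), each of which counts 1 captured transcript: at most 10% of a cell's UMIs from mitochondrial genes, at least 5 UMIs in the sum of *Acan*, *Col9a1*, *Hapln1*, *Snorc* and *Matn3* (the 5 gate genes), at least 3 UMIs of *Col10a1*, and 0 UMIs of the leukocyte gene *Ptprc*. The rule kept 748 cells of 23752 barcodes in the 7 dpi library and of 62665 barcodes in the whole series. They are called *Col10a1* cells below. The series held 4 single-cell RNA sequencing libraries on the 10x platform, 1 each from uninjured tibial muscle (day 0) and from muscle 1, 3 and 7 days after an injection of cardiotoxin, a venom toxin that destroys muscle fibres. All mice were *Nse-Bmp4* on a C57BL/6 background, 6 to 8 weeks old, and each library pooled 3 muscles. In these mice the rat neuron-specific enolase promoter drives a murine *Bmp4* cDNA, so the uninjured library carried the transgene too. With 1 library per time point there was no replicate and no test, and the 95% intervals given are counting error only.

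In the growth plate, a chondrocyte leaves the cell cycle, swells, and changes its matrix from collagen II to collagen X before the cartilage is mineralized and replaced by bone. Cells that enter this step make the ligand *Ihh*, which acts through the receptor *Ptch1* on neighbouring cells and keeps up the hormone PTHrP (*Pthlh*), whose receptor *Pth1r* holds hypertrophy back. *Runx2*, *Mef2c* and *Foxa2* are transcription factors known to switch the hypertrophic genes on, and fully hypertrophic cells add *Ibsp*, *Spp1*, *Mmp13* and *Vegfa*.

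The promoters of 3 of these genes are shown because 1 chose the cells, 1 had the highest level among the effector genes and 1 holds the core letters of a RUNX site. Each window runs from 250 bases before the RefSeq gene start to 50 bases after it on GRCm38.p6, all 3 on the plus strand: *Col10a1* at chr10:34389731-34390030, *Ibsp* at chr5:104299037-104299336 and *Mmp13* at chr9:7272264-7272563. Capitals mark TGTGGT on either strand, which reads ACCACA on the printed strand.
Col10a1: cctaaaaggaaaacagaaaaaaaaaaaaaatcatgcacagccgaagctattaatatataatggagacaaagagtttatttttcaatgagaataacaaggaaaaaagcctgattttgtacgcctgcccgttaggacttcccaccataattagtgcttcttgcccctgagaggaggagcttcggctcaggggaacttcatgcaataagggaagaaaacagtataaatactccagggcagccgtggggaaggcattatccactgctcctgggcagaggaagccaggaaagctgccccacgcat
Ibsp: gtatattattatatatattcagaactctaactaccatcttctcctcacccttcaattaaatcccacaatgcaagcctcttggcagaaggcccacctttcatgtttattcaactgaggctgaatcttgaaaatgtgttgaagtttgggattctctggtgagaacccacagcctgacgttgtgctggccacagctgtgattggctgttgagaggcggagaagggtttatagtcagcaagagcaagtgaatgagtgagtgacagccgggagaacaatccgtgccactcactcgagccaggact
Mmp13: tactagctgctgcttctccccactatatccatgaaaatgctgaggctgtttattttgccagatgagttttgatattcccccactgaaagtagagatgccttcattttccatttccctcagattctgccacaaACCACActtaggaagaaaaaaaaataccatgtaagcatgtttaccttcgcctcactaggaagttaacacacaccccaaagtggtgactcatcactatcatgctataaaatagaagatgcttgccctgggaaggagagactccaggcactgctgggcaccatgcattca
The letters occurred 1 time in the *Mmp13* window, at position -118 from the gene start, and not in the *Col10a1* or *Ibsp* window. Among the RefSeq windows of the markers and the hypertrophy effector genes, 3 of 19 windows held them (15.8%), in *Spp1*, *Mmp13* and *Col8a1*, against 16.8% of all 32851 promoters. A match describes letters only.

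No library before 7 dpi held such a cell. The 5 gate genes reached 5 UMIs in 5 cells of day 0, 0 cells of day 1 and 8 cells of day 3, and none of these had 3 UMIs of *Col10a1*; 0 of 11827, 10853 and 14118 cells allows shares of up to 0.0254%, 0.0276% and 0.0212%, the share that 3 cells would make. At 7 dpi the 748 cells were 3.25% (3.02% to 3.49%, Clopper-Pearson) of the 23026 cells within the mitochondrial limit. *Col10a1* itself (ENSMUSG00000039462, chr10:34389981-34397085) had 0, 1, 3 and 25157 UMIs in the 4 libraries, and 87.1% of the 7 dpi UMIs lay in the *Col10a1* cells. *Ihh* had 1, 1, 6 and 2690 UMIs. *Ibsp* was already present at 1 and 3 dpi, with 643 UMIs in 29 cells and 627 UMIs in 26 cells, against 15 at day 0 and 253943 at 7 dpi. The libraries shared 88 to 95 barcodes with the 7 dpi library, and 8 barcodes of *Col10a1* cells recurred in another library.

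The gate values were uneven. *Col10a1* ranged from 3 to 638 UMIs with a median of 9, and the 196 cells with 20 or more held 80.3% of the UMIs of this gene in all *Col10a1* cells. Just inside the threshold, 89 cells had 3 UMIs of *Col10a1* and an *Ibsp* level of 15033 CPM (counts of a gene per 1000000 UMIs of the same cells). Just outside, 157 cells had 2 UMIs and 9942 CPM of *Ibsp*. For the 5 gate genes, 9 cells had the lowest permitted sum of 5 and 9 more failed with a sum of 4, while 100 cells failed on *Ptprc* alone. The cells held 616 to 45881 UMIs with a median of 4212.5 and 1744.5 genes. Depth was spread widely: the 181 cells with at least 8000 UMIs were 24.2% of the *Col10a1* cells but gave 62.6% of their UMIs, so a CPM weighs these cells most.

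**Figure D1:**
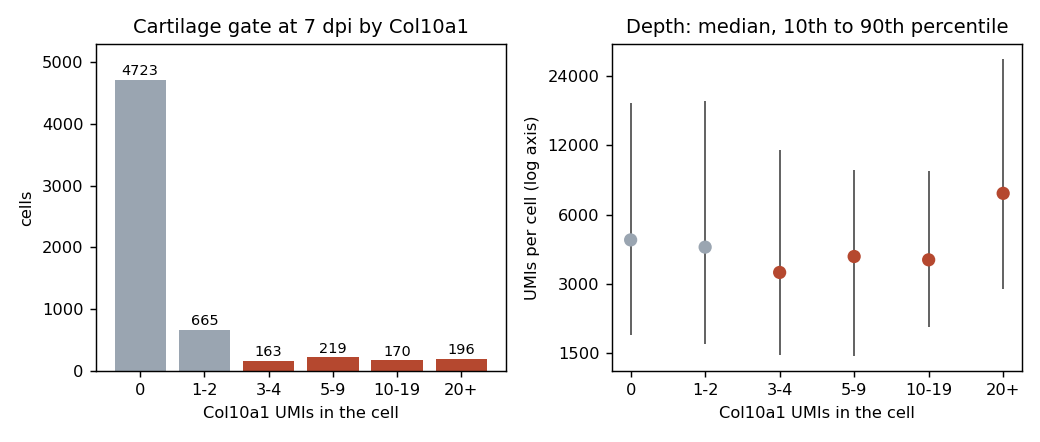
Left, number of cells of the 7 dpi library that pass the cartilage gate, by their *Col10a1* UMIs (grey, 0 to 2; red, the *Col10a1* cells). Right, UMIs per cell on a log axis, with the median as a point and the 10th to 90th percentile as a line. The cells with 20 or more *Col10a1* UMIs had a median of 7424 UMIs, against 3359 in those with 3 or 4.

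The main comparison set the *Col10a1* cells against the 4723 cells that passed the same gate but had 0 UMIs of *Col10a1* (*Col10a1*-0 chondrocytes, median 4654 UMIs). A further 665 cells with 1 or 2 UMIs stood between. Selecting on *Col10a1* also selected cells with more of the gate genes. Their sum was 93.5 per 10000 UMIs (median over cells) in the *Col10a1* cells and 31.0 in the *Col10a1*-0 chondrocytes. Of the latter, the 1532 cells with at least 8000 UMIs gave 25121879 of 36575525 UMIs. The gate genes had a median of 10.6 per 10000 UMIs in these, against 169.5 in the 181 *Col10a1* cells of that depth. CPM of the *Col10a1*-0 chondrocytes thus weighed deep cells with few cartilage transcripts most. The main ratios are therefore given a second time among cells in which the gate genes reached at least 50 per 10000 UMIs, 599 *Col10a1* cells and 1585 *Col10a1*-0 chondrocytes, called cartilage-rich cells. This second comparison was added after the data had been seen. The gate genes were still not equal in it, at 116 and 82.4 per 10000 UMIs.

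Of 9260 genes with at least 50 UMIs in both groups together and a UMI in 5% of the cells of either, 372 (4.02%) were at least 2-fold higher and 466 (5.03%) at least 2-fold lower in the *Col10a1* cells. Among cartilage-rich cells, 213 of 8766 genes (2.43%) were at least 2-fold higher and 91 (1.04%) at least 2-fold lower. The median log2 ratio over all genes tested was -0.17 in the first comparison and -0.02 in the second. A gene could pass the minimum through 1 group alone, as *Foxa2*, *Foxa3*, *Phex*, *Bmp2*, *Bmp6* and *Nog* did. Counts of genes past 2-fold include such genes.

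The effectors of hypertrophy were higher. Of 12 listed, 10 passed the minimum, of which 7 were at least 2-fold higher and 1 lower, with a median log2 ratio of 1.78. Among cartilage-rich cells 7 of 10 were at least 2-fold higher, none was lower, and the median was 1.08. These 7 are not the same genes, since *Panx3* was no longer past 2-fold and *Mmp13*, with 37.7% of its UMIs in 2 cells, was. *Ihh* (ENSMUSG00000006538, chr1:74945315-74951672) stood at 276 CPM (262 to 290) in the *Col10a1* cells and 18.5 CPM (17.1 to 19.96) in the *Col10a1*-0 chondrocytes, which is 14.9-fold (13.6 to 16.3) higher. It stayed 5.30-fold (4.80 to 5.85) higher among cartilage-rich cells. *Ibsp*, the mineral-binding bone sialoprotein (ENSMUSG00000029306, chr5:104299171-104311469), stood at 15398 and 2644 CPM, a ratio of 5.82 (5.77 to 5.88), and at 16347 and 3961 CPM among cartilage-rich cells. *Pth1r*, the receptor for PTHrP (ENSMUSG00000032492, chr9:110722085-110747145), stood at 1540 and 352 CPM, a ratio of 4.37 (4.25 to 4.49). The *Pth1r* ratio among cartilage-rich cells was 2.35 (2.27 to 2.43).

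Others of the list differed less. *Cd200* was 3.71-fold (3.51 to 3.92) higher and *Panx3*, a channel of the pannexin family, 3.71-fold (3.55 to 3.88), which among cartilage-rich cells became 2.24 and 1.499. *Spp1*, osteopontin, was 3.20-fold (3.11 to 3.29) higher, and 14.1% of its UMIs in *Col10a1* cells came from 1 cell. *Alpl*, the alkaline phosphatase that frees phosphate for mineral, stood at 929 and 386 CPM, a ratio of 2.41 (2.33 to 2.49) that changed little among cartilage-rich cells, at 2.15 (2.07 to 2.24). *Mmp13*, the collagenase of the last hypertrophic cells, stood at 78.7 and 46.6 CPM, a ratio of 1.69 (1.51 to 1.88), and 37.7% of its 432 UMIs came from 2 cells. Without the cell that held the most it was 1.32. Among cartilage-rich cells it was 2.08, a value that includes both of these cells. *Vegfa*, which attracts vessels, was 1.74-fold (1.54 to 1.95) higher. *Col8a1* was the listed gene that was lower, at 143 against 389 CPM, and its ratio was 0.86 among cartilage-rich cells. Among cartilage-rich cells the ratio of *Vegfa* was 1.91. *Phospho1* and *Slc37a2* had 11 and 28 UMIs in the *Col10a1* cells and did not pass the minimum.

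**Figure D2:**
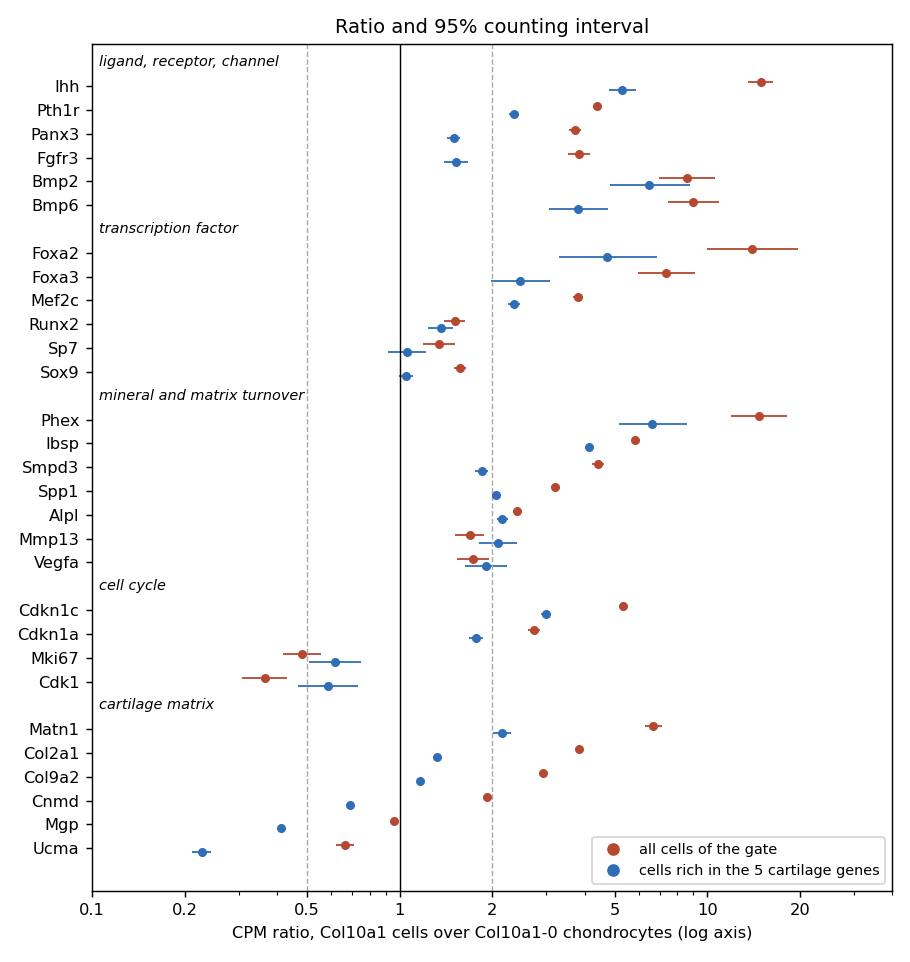
CPM ratio of *Col10a1* cells over *Col10a1*-0 chondrocytes on a log axis, for all cells of the gate (red) and for cartilage-rich cells (blue), with the 95% counting interval; dashed lines mark 2-fold. *Ihh*, *Phex* and *Ibsp* stay to the right of 2-fold in both comparisons, while *Ucma* and *Mgp* move to the left among cartilage-rich cells.

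Among 15 transcription factors and cofactors that regulate hypertrophy, 11 passed the minimum, of which 4 were at least 2-fold higher and 0 lower (median log2 ratio 0.78). In cartilage-rich cells 3 of 11 were at least 2-fold higher and 0 lower (median 0.44). *Foxa2* had 20.2 CPM against 1.45, a ratio of 13.9 (9.97 to 19.7), on 111 and 53 UMIs, and of 4.72 among cartilage-rich cells. *Foxa3* was 7.36-fold (5.95 to 9.11) higher, and 2.47-fold among cartilage-rich cells. *Mef2c* had the highest level of the list, at 792 and 209 CPM, a ratio of 3.79 (3.65 to 3.94) and of 2.35 among cartilage-rich cells. *Mef2d* lay just past 2-fold at 2.004 (1.78 to 2.25). *Runx2*, which acts upstream of *Col10a1*, was 1.51-fold (1.39 to 1.63) higher and *Sp7*, a factor of bone-forming cells, 1.34-fold (1.19 to 1.51). *Hdac4*, a corepressor that holds *Mef2c* and *Runx2* back, was at 9.83 against 15.4 CPM. *Zfp521*, another repressor of *Runx2*, was at 16.4 against 30.3 CPM. *Foxa2* and *Foxa3* passed the minimum only through the *Col10a1* cells, with a UMI in 8.82% and 15.9% of these. In the *Col10a1*-0 chondrocytes the shares were 0.995% and 2.86%, so the filter in part set the count of higher factors. *Mef2c*, found in 73.7% and 53.7% of the 2 groups, had a ratio of 3.79, and *Runx2* was close in both groups.

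The transcription factors of chondrocytes at large were closer still. Of 12, 7 passed, 1 was at least 2-fold higher and 0 lower, with a median log2 ratio of 0.65, and of -0.01 among cartilage-rich cells. *Sox9*, the master factor of cartilage, stood at 387 and 246 CPM, a ratio of 1.57 (1.498 to 1.65), and among cartilage-rich cells at 1.05. *Trps1* was the one past 2-fold, at 2.23 (2.10 to 2.37), and at 1.47 among cartilage-rich cells.

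In the loop of *Ihh* and PTHrP, the ligand *Ihh* and the receptor *Pth1r* were higher. Of 11 genes, 6 passed, and these 2 were at least 2-fold higher, with none lower (median log2 ratio -0.13), also among cartilage-rich cells (median 0.02). *Ptch1* and *Gli1*, receptor and target of hedgehog signals, whose own levels rise in cells that receive it, stood at 88.3 against 120 CPM and 8.92 against 15.4 CPM, ratios of 0.74 (0.67 to 0.81) and 0.58 (0.42 to 0.78). Among cartilage-rich cells the *Gli1* ratio was 0.70 with an interval that reached 1.06. *Pthlh* had 25 UMIs in the *Col10a1* cells, 4.55 CPM against 6.67.

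Genes of bone matrix and mineralization were split. Of 20, 13 passed, 5 were at least 2-fold higher and 0 lower, and the median log2 ratio was 0.11. The 5 were *Phex*, *Ibsp*, *Smpd3*, *Spp1* and *Alpl*. Among cartilage-rich cells 14 passed, 5 were higher, with *Bglap* in place of *Smpd3*, *Mgp* was lower, and the median was 0.47. Over all cells *Bglap* had missed the minimum, with a UMI in 4.68% of the *Col10a1* cells and 1.06% of the *Col10a1*-0 chondrocytes. No conclusion is drawn from its entry. *Phex*, an endopeptidase that supports mineralization (ENSMUSG00000057457, chrX:157162075-157415312), stood at 52.3 and 3.55 CPM, a ratio of 14.7 (11.9 to 18.2) and of 6.62 (5.15 to 8.595) among cartilage-rich cells. *Smpd3*, a sphingomyelinase needed for cartilage mineral, was 4.40-fold (4.21 to 4.60) higher and 1.85-fold among cartilage-rich cells. The fibrillar collagens of bone were close: *Col1a1* stood at 11716 and 13305 CPM and *Col1a2* at 11245 and 11673 CPM. The osteocalcin gene *Bglap* had 99 UMIs in 35 *Col10a1* cells, 34.3% of them in 1 cell and 58.6% in 2 cells. *Mepe* had 7 UMIs. *Dmp1*, a gene of osteocytes, was present in 1 *Col10a1* cell, which held 132 UMIs of it. The same cell held 964 UMIs of *Spp1*, 68 of *Mmp13*, 24 of *Bglap* and 0 of *Sost*, with 344 UMIs of the gate genes and 3 of *Col10a1* among 26509 UMIs in all. It was not among the cells that Scrublet scored highest as doublets.

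Inhibitors of the cell cycle moved both ways, and genes that run the cycle were lower. *Cdkn1c* (p57), which growth-plate chondrocytes need to leave the cycle, stood at 1401 and 263 CPM, a ratio of 5.32 (5.17 to 5.49) and of 2.99 (2.88 to 3.10) among cartilage-rich cells. *Cdkn1a* (p21) was 2.73-fold (2.60 to 2.85) higher, and 1.77-fold among cartilage-rich cells. Of the 6 inhibitors these 2 were higher, and *Cdkn2a*, *Cdkn2b* and *Cdkn2c* were at least 2-fold lower, for example *Cdkn2b* at 16.6 against 62.5 CPM, and the median log2 ratio of the 6 was -0.57. Among cartilage-rich cells *Cdkn1c* alone of the 6 was at least 2-fold higher and none was lower. Of 20 cycling genes, 20 passed, 13 were at least 2-fold lower and 0 higher, with a median log2 ratio of -1.32. *Mki67*, the proliferation antigen, stood at 38.4 and 79.9 CPM, 2.08-fold (1.81 to 2.40) lower, and *Cdk1* at 26.0 and 71.4 CPM. Among cartilage-rich cells 1 of 18 cycling genes was at least 2-fold lower and the median was -0.67. The *Mki67* ratio was 0.62 there. Its log2 ratio was -0.22 after thinning to 3000 UMIs, -0.37 with limits of 2 SD on UMIs and genes and -0.59 as a mean over cells, against -1.06 over all cells. The median log2 ratio of cycling genes was -0.71, -0.45 and -0.57 in the same order. The lower level of the cycling genes was thus within 2-fold at the median once cells poor in cartilage genes were left out or deep cells weighed less.

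Matrix genes of cartilage depended on that choice too. Of 19 outside the gate, 18 passed, 10 were at least 2-fold higher and 0 lower, with a median log2 ratio of 1.35. Among cartilage-rich cells 1 was higher, 1 lower, and the median was -0.01. *Col2a1*, collagen II, stood at 23702 and 6199 CPM, and at 26214 and 19795 CPM among cartilage-rich cells. *Matn1*, matrilin 1, was the gene that stayed past 2-fold, with ratios of 6.68 (6.26 to 7.12) and 2.15 (2.01 to 2.29). *Cnmd*, chondromodulin, one of the markers named for these cells, was 1.92-fold (1.86 to 1.98) higher over all cells but at 1113 against 1611 CPM among cartilage-rich cells. *Ucma*, a gene of upper growth-plate chondrocytes, stood at 163 and 245 CPM over all cells and at 177 and 781 CPM among cartilage-rich cells, 4.40-fold (4.10 to 4.73) lower. *Mgp*, matrix Gla protein, which inhibits mineral, was at 3768 and 3944 CPM over all cells and 2.43-fold (2.39 to 2.47) lower among cartilage-rich cells. Among cartilage-rich cells, the *Col10a1* cells thus held *Col2a1* and *Sox9* within 2-fold, more *Ihh*, *Ibsp* and *Phex*, and less *Ucma* and *Mgp*. Sulfation and chain synthesis of proteoglycans followed the matrix: 4 of 15 genes at least 2-fold higher and 0 lower (median log2 ratio 0.64), and 0 of 15 either way among cartilage-rich cells (median 0.10).

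The growth factors differed in a few members. Of 19 ligands, receptors and antagonists of bone morphogenetic proteins (BMPs), 10 passed, 3 were at least 2-fold higher and 1 lower, with a median log2 ratio of -0.31. Among cartilage-rich cells 3 of 9 were higher and 2 lower (median -0.19). The 3 higher over all cells were *Bmp2*, *Bmp6* and *Nog*, which passed the minimum only through the *Col10a1* cells. A UMI of them was in 10.8%, 20.6% and 5.75% of these, against 2.60%, 3.30% and 1.21% of the *Col10a1*-0 chondrocytes. The count of higher genes was thus in part set by the filter, and no conclusion is drawn from it. *Bmp2* stood at 37.3 against 4.35 CPM and *Bmp6* at 47.2 against 5.25 CPM, ratios of 8.59 (6.95 to 10.6) and 8.98 (7.43 to 10.9), and of 6.48 and 3.804 among cartilage-rich cells. The antagonist *Nog* was 5.63-fold (3.92 to 8.05) higher on 60 UMIs, and *Fst*, an activin antagonist, was at 44.1 against 119 CPM; among cartilage-rich cells their ratios were 3.60 and 0.39. *Bmp4*, which the transgene also encodes, had 19 UMIs in the *Col10a1* cells, 3.46 CPM against 8.42, and the counts do not tell the transgene's transcripts from those of the gene. Of 9 BMP response genes, 7 passed and 1 was at least 2-fold higher, the pseudoreceptor *Bambi* at 2.58 (2.39 to 2.79), and at 2.12 among cartilage-rich cells. *Id1* was at 1.496 and *Id3* at 0.87 (median log2 ratio 0.42). Of 12 FGF genes, 7 passed, with *Fgfr3*, the receptor that slows growth-plate chondrocytes, 3.83-fold (3.53 to 4.15) higher and *Fgfr2* at 26.6 against 63.7 CPM (median log2 ratio 0.01). Among cartilage-rich cells *Fgfr3* was at 1.53, so that 0 of 7 were at least 2-fold higher, and *Fgfr2* at 0.38 was the 1 lower. Of 17 Wnt genes, 11 passed, 4 were at least 2-fold higher and 2 lower (median 0.55). *Wnt4* was 4.18-fold (3.38 to 5.15), *Wnt5b* 3.68-fold (3.23 to 4.19) and the secreted inhibitor *Frzb* 3.02-fold (2.86 to 3.18) higher, while *Sfrp1* and *Dkk3* were lower. Among cartilage-rich cells 2 of 11 Wnt genes were at least 2-fold higher, *Wnt4* (2.42) and *Wnt5b* (2.36), and 1 lower, and *Frzb*, *Sfrp1* and *Dkk3* were at 1.28, 0.86 and 0.80.

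None of 21 endoplasmic reticulum genes passed 2-fold, with a median log2 ratio of 0.15, nor any of 19 glycolysis and hypoxia genes (median -0.08) or of 11 immediate early and heat shock genes (median -0.18). Among cartilage-rich cells the medians were 0.03, -0.08 and -0.26, and 1 gene of the 3 lists passed 2-fold, the heat shock gene *Hspa1a* at 0.49. Of 12 proteases and inhibitors that passed, 0 were at least 2-fold higher and 3 lower, among them *Mmp14* at 258 against 561 CPM (median -0.15). Among cartilage-rich cells 2 of 11 were higher, the inhibitor *Timp3* (2.23) and *Mmp13*, whose UMIs lay to 37.7% in 2 cells, and 0 lower. Of 17 mesenchymal progenitor genes, 5 were at least 2-fold lower and 0 higher (median -0.67), and among cartilage-rich cells 0 of 16 passed 2-fold either way (median -0.31). *Aspn*, asporin, stood at 438 and 1527 CPM and *Postn*, periostin, at 1493 and 2954 CPM, while among cartilage-rich cells *Postn* stood at 1234 and 1452 CPM.

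Among genes with at least 200 UMIs in both groups together and a UMI in 10% of the cells of the higher group, which leaves out *Foxa2*, the 15 with the largest ratio were, in order, *Wnk4*, *Ihh*, *Phex*, *Loxl4*, *F13a1*, *Proser2*, *Gm45397*, *Pcsk6*, *Rasd1*, *Pank1*, *Bmp6*, *Hpgd*, *Bmp2*, *Slc38a3* and *Enpp2*, and all 15 stayed at least 2-fold higher among cartilage-rich cells. *Wnk4*, a kinase known for ion transport in the kidney (ENSMUSG00000035112, chr11:101260567-101277409), stood at 82.5 against 3.77 CPM, a ratio of 21.9 (18.0 to 26.6) and of 9.43 (7.52 to 11.9) among cartilage-rich cells. *Loxl4*, a lysyl oxidase that crosslinks collagen, was 12.6-fold (11.1 to 14.2) higher and *F13a1*, a transglutaminase, 11.9-fold (10.1 to 14.1). *Pcsk6*, a proprotein convertase, stood at 150 against 15.3 CPM and *Hpgd*, which breaks down prostaglandins, at 158 against 18.2 CPM. *Enpp2*, the enzyme that makes lysophosphatidic acid, was 7.89-fold (7.14 to 8.73) higher. The 15 with the smallest ratio were *Smoc1*, *Gzme*, *Hist1h2ap*, *Slc40a1*, *Scx*, *Pappa*, *Spc24*, *Actg2*, *Ctxn1*, *Rasl11b*, *Plekhg4*, *Cdkn2b*, *Hsd11b2*, *Col8a2* and *Dkk3*. *Smoc1*, a secreted modulator of BMP signals, was at 4.01 against 27.7 CPM, 6.92-fold (4.55 to 11.1) lower, and *Scx*, a transcription factor of tendon, at 22.9 against 102 CPM. Among cartilage-rich cells 6 of these 15 stayed at least 2-fold lower and 9 did not: *Gzme*, *Scx*, *Pappa*, *Actg2*, *Rasl11b*, *Plekhg4*, *Cdkn2b*, *Hsd11b2* and *Dkk3*. The *Scx* ratio was 1.00 there. The cartilage-rich cells were part of the cells that chose both sets of 15, so neither count is a separate check. After thinning to 3000 UMIs *Spc24* and *Ctxn1* were within 2-fold.

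Levels were next read along the *Col10a1* count. *Ihh* stood at 18.5, 45.3, 126, 162, 233 and 402 CPM in cells with 0, 1 to 2, 3 to 4, 5 to 9, 10 to 19 and 20 or more *Col10a1* UMIs. *Wnk4*, *Phex* and *Cdkn1c* were higher in each bin than in the one before, the last from 263 to 1699 CPM. *Ibsp* did not follow in order: it stood at 13291 CPM in the 3 to 4 bin, 10315 and 9366 CPM in the next and 20984 CPM in the top bin. *Mmp13* was highest in the 3 to 4 bin, at 202 CPM, the bin of the 2 cells with the most. *Sox9* ran from 246 to 420 CPM and *Postn* from 2954 to 1061 CPM across the bins. The gate genes differed along the same bins, at medians of 31.0, 49.2, 73.5, 73.4, 86.5 and 163 per 10000 UMIs. Their part in these levels was not tested. After thinning to 3000 UMIs the *Ihh* levels kept the same order, from 17.7 to 349 CPM, and those of *Phex* did not, with 26.5 CPM in the 3 to 4 bin and 23.8 CPM in the next.

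**Figure D3:**
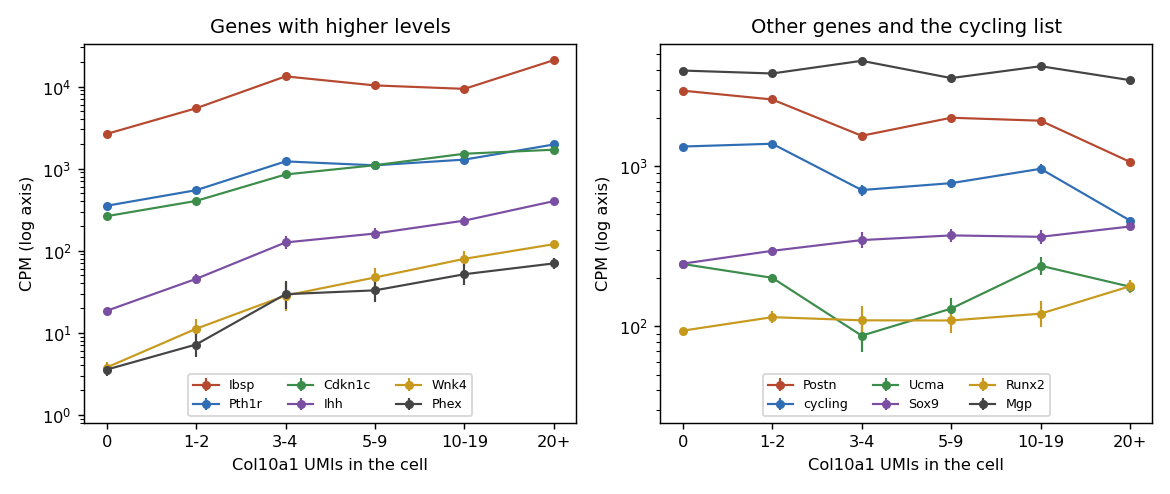
CPM on a log axis by *Col10a1* UMIs in the cell, with 95% counting intervals; left, 6 genes with higher levels, right, 5 genes and the summed cycling list. *Ihh*, *Wnk4*, *Phex* and *Cdkn1c* increase across every bin, and the cycling sum is 457 CPM in the top bin against 1324 CPM in *Col10a1*-0 chondrocytes.

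Within the *Col10a1* cells, the 249 cells with the highest *Col10a1* share of UMIs (high tercile) were set against the 250 with the lowest (low tercile). The 10 genes with the largest ratio were *F13a1*, *Aldh1a3*, *Pcsk6*, *Phex*, *Ddit4l*, *Tspan13*, *Fxyd3*, *Rbp4*, *Tcf7l2* and *Atp1b3*. *F13a1* was 4.88-fold (3.77 to 6.39) and *Aldh1a3*, an enzyme of retinoic acid synthesis, 3.51-fold (2.95 to 4.19) higher in the high tercile. The 10 with the smallest ratio were *Ppa1*, *Car8*, *Fabp5*, *Omd*, *Fibin*, *Nrp2*, *Pcp4*, *Mt2*, *Rtl3* and *Lmcd1*. *Ppa1*, an inorganic pyrophosphatase, stood at 853 CPM in the low tercile and 284 CPM in the high tercile. The terciles differed in depth, with medians of 6087 UMIs in the low and 3205 in the high one, and its part in these ratios was not tested.

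Correlation with *Col10a1* over the 504 cells with at least 3000 UMIs, each thinned to that number, was weak. The 10 highest Spearman coefficients ran from 0.27 to 0.21, for *Ibsp*, *Gsk3b*, *Cst3*, *Atp1b3*, *Tcf7l2*, *Aldh1a3*, *Col2a1*, *Tsc22d4*, *Pcolce2* and *Loxl4*. *Mgp* had the lowest, at -0.29. Of 80 ribosomal protein genes, 76 had a coefficient below 0, as did 999 of all 1747 genes, with medians of -0.14 and -0.01. The points are cells of 1 library, so these are descriptions.

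Per cell at that equal depth, *Ibsp* ranged from 0 to 432 UMIs with a median of 16 in the *Col10a1* cells and from 0 to 384 with a median of 0 in the *Col10a1*-0 chondrocytes. *Pth1r* had medians of 3 and 0 UMIs with highest values of 19 and 16, and *Ihh* reached 6 and 5 UMIs with a median of 0 in both. The groups thus overlapped cell by cell for each of these genes. A UMI of *Ibsp* was found in 94.4% (92.1% to 96.3%) of the *Col10a1* cells and 49.3% (47.6% to 51.1%) of the *Col10a1*-0 chondrocytes. *Ihh* was found in 32.3% (28.3% to 36.6%) and 4.27% (3.61% to 5.01%), *Pth1r* in 88.7% and 48.1%, and *Cdkn1c* in 78.6% and 38.8%. *Mmp13* was found in 7.34% (5.22% to 9.98%) and 7.67% (6.79% to 8.62%), and these intervals overlap. Thinning left out 244 *Col10a1* cells and 1371 *Col10a1*-0 chondrocytes as too shallow; unthinned, *Ihh* was in 43.6% and 7.73% of all cells. Free RNA reaches droplets of any cell, and 131 B cells of the library (median 1676 UMIs) had a UMI of *Ibsp* in 23.7%, of *Ihh* in 2.29%, of *Alpl* in 8.40% and of *Mmp13* in 0.763% of cells.

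**Figure D4:**
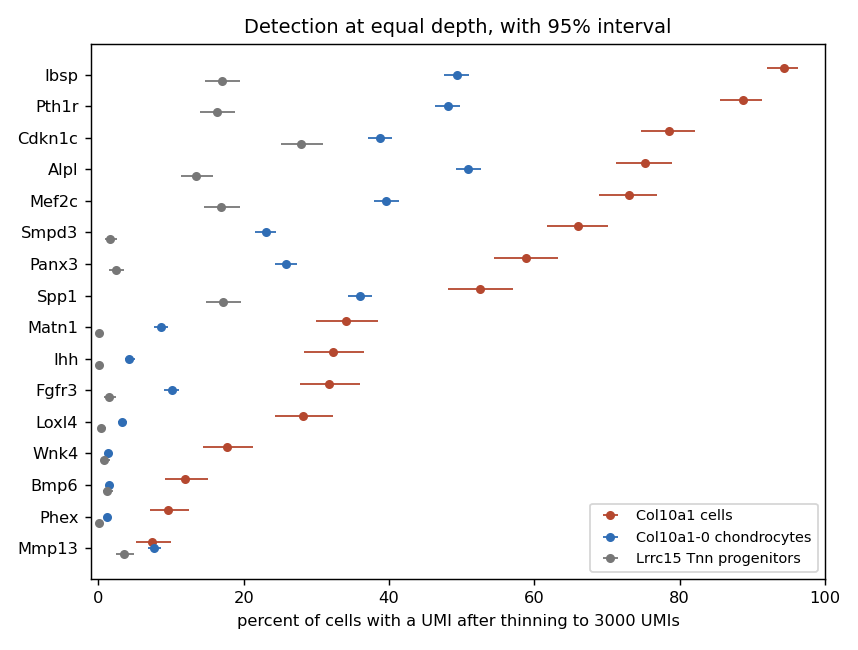
Percent of cells with a UMI after each cell was thinned to 3000 UMIs, with the 95% Clopper-Pearson interval, in *Col10a1* cells (red, 504), *Col10a1*-0 chondrocytes (blue, 3352) and progenitors (grey, 964). The intervals of red and blue are apart for every gene drawn except *Mmp13*.

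The 5 hypertrophic genes *Ihh*, *Ibsp*, *Mmp13*, *Spp1* and *Alpl* did not mark the same cells equally. All 5 were found in 13 of the 504 thinned cells (2.58%), 3 of them in 170 cells and none in 7. *Alpl* was found in 84.0% of cells with *Ihh* and 71.0% of those without it, *Spp1* in 57.1% and 50.4%. Of the 37 cells with *Mmp13*, 30 had *Spp1* (81.1%) against 50.3% of the cells without *Mmp13*, and 14 had *Ihh*.

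The *Col10a1* cells held 4.31% of the 7 dpi library's UMIs but much larger parts of some genes. They carried 56.3% of its *Ihh* UMIs, 54.4% of *Foxa2*, 52.8% of *Phex*, 51.7% of *Wnk4*, 43.9% of *Loxl4* and 33.3% of *Ibsp*. For *Alpl* and *Spp1* the shares were 17.3% and 18.6%, so most of these transcripts lay in other cells. *Col1a1* at 4.23% was near the share of all UMIs, and *Postn* at 2.18% and *Aspn* at 1.57% were below it.

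**Figure D5:**
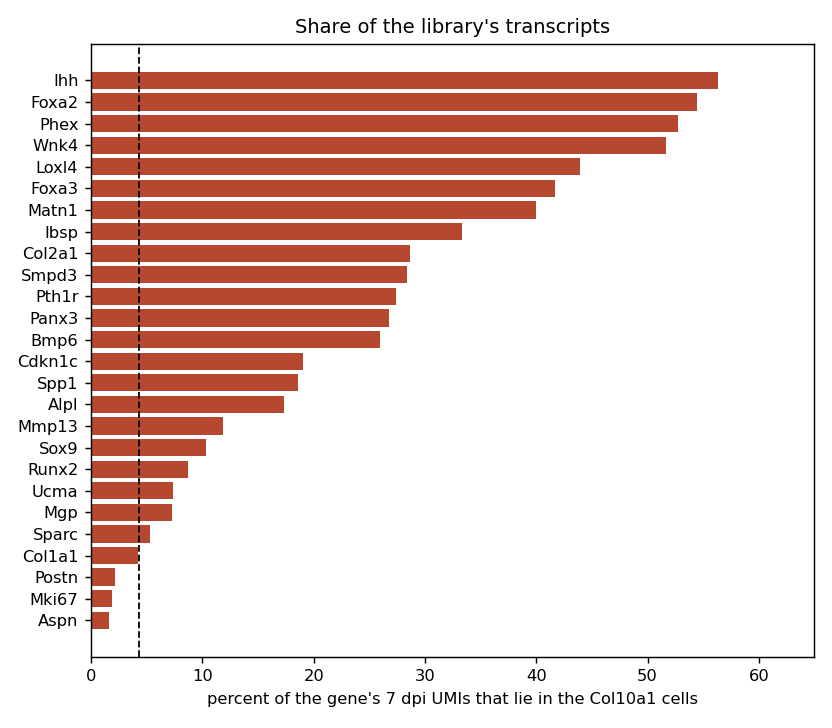
Percent of each gene's UMIs in the 7 dpi library that lay in the *Col10a1* cells; the dashed line is their share of all UMIs, 4.31%. *Ihh*, *Foxa2*, *Phex* and *Wnk4* exceed 50%, and *Col1a1*, *Postn*, *Mki67* and *Aspn* lie at or below the line.

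The cells were also set against 1241 progenitors of the library, cells with at least 3 UMIs in the sum of *Lrrc15* and *Tnn*, at most 1 UMI of the gate genes and 0 of *Ptprc* (median 6577 UMIs). Of 9997 genes, 668 (6.68%) were at least 2-fold higher and 1216 (12.2%) at least 2-fold lower in the *Col10a1* cells, with a median log2 ratio of -0.25. All 18 cartilage matrix genes and 8 of 10 hypertrophy effectors were at least 2-fold higher, with median log2 ratios of 6.28 and 4.03. Progenitors could hold at most 1 UMI of the gate genes and *Col10a1* cells needed at least 5. The choice of cells thus in part fixed the count for cartilage matrix, and no conclusion is drawn from it. Of the effectors, 1 was at least 2-fold lower. *Ihh* had 0.381 CPM in the progenitors and *Ibsp* 132 CPM. *Pth1r* was 29.4-fold, *Panx3* 140-fold and *Alpl* 18.6-fold higher, while *Vegfa* was at 63.9 against 68.5 CPM. Of 20 cycling genes 18 were at least 2-fold lower, and of 20 glycolysis genes 6.

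Markers of other cell types were checked over whole lists. The summed endothelial list was 8.38 CPM in the *Col10a1* cells against 14.7 in the *Col10a1*-0 chondrocytes, with *Kdr* at 0. The erythroid sum was 10.4 against 76.5, the myeloid sum 135 against 229 with *Lyz2* the most abundant, the lymphoid sum 22.9 against 18.2, the mural sum 126 against 114 and the Schwann sum 43.5 against 64.0. The osteoclast sum was 160 against 279 CPM, 147 of it from *Ctsk*; *Acp5* was found in 46 cells (6.15%), *Mmp9* in 11, *Ocstamp* in 2 and *Atp6v0d2* in 1, and *Calcr*, *Oscar* and *Dcstamp* were at 0. Besides the lymphoid and mural sums, the muscle list was higher, and by more, at 184 against 38.7 CPM. Of its 7 genes, 3 passed the minimum and were at least 2-fold higher. *Acta1* and *Mylpf* passed only through the *Col10a1* cells, with a UMI in 5.35% and 6.02% of these. In the *Col10a1*-0 chondrocytes the shares were 3.07% and 4.19%, so the filter in part set this count. *Acta1*, the most abundant gene of the list, had 382 UMIs in 40 *Col10a1* cells, 38.0% of them in 2 cells. At least 5 UMIs of the list were held by 20 *Col10a1* cells (2.67%) against 37 (0.783%) of the *Col10a1*-0 chondrocytes. In cells with no UMI of the endothelial, myeloid, lymphoid and muscle lists, 345 *Col10a1* cells remained and the median log2 ratio of the hypertrophy effectors was 1.84.

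For the label of the cells, *Ibsp*, *Ihh*, *Pth1r*, *Mef2c* and *Alpl*, which the rule did not use, were at least 2-fold higher than in the *Col10a1*-0 chondrocytes in both comparisons. *Panx3* was so over all cells only, and *Col8a1* was lower over all cells. *Ibsp*, like *Cnmd*, was one of the markers named for these cells, so its level is no separate support for the label. *Acan* and *Snorc* were part of the rule. *Cnmd* was lower than in *Col10a1*-0 chondrocytes among cartilage-rich cells. Over all cells *Runx2*, *Mmp13*, *Vegfa* and *Sp7* were within 2-fold. *Spp1* was at least 2-fold higher in both comparisons, with 18.5% of its UMIs in *Col10a1* cells from 2 cells. *Bglap*, a gene of osteoblasts, was found in 35 *Col10a1* cells (4.68%) against 50 *Col10a1*-0 chondrocytes (1.06%). *Dmp1*, a gene of osteocytes, was found in 1 (0.134%) against 7 (0.148%).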

How the data were processed

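The data were 4 single-cell libraries, 1 per time point. The authors mapped reads and counted UMIs with Cell Ranger 5.0.0 and deposited whole-number counts per gene and barcode, without scaling. The submitters' processing notes also name Seurat 3.1.1 and the build mm10. The protocol also names a step that down-samples reads; the sources used here do not say if it was applied to these counts. Library totals were 112317902, 91146335, 116346301 and 129007669 UMIs at day 0, 1, 3 and 7.

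The members, gene lists and rules were chosen with earlier results of these data known. Counts were summed over the cells of a group and divided by all UMIs of those cells (CPM). Poisson intervals were used for levels, conditional binomial intervals for ratios and Clopper-Pearson intervals for shares, all exact at 95% and covering counting error only; ratios were tested on simulated data. Cells of 1 library are not replicates, so no p-value was computed. A 0 was given as the share that 3 cells would make. Named genes were those of the lists, the 15 largest and smallest ratios among genes with at least 200 UMIs, 3 in each group and a UMI in 10% of the cells of the higher group, the 10 largest and smallest ratios between terciles of *Col10a1* share, and the 10 highest correlations among genes in 20% of cells. Gate genes were left out of these. No doublets were removed in the main analysis; Scrublet scored the library and removing the highest 7.5% was an alternative, which took out 69 *Col10a1* cells. Gene positions came from GENCODE M21 (99.6% of identifiers matched) and promoters from RefSeq. Tools were Python 3.11.15, numpy 2.4.6, scipy 1.17.1, pandas 2.3.3, scanpy 1.11.5 and matplotlib 3.10.9.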

Additional observations from a re-analysis of the deposited data

How the results depend on the processing

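No paired analysis was possible because each time point was a single library. Without cells holding a UMI of the endothelial, myeloid, lymphoid or muscle lists (below, without other markers), the number of *Col10a1* cells was 345. The genes higher, 372 in the main comparison, were 242 with limits of 2 SD on UMIs and genes, 213 as a mean over cells, 203 after thinning, 898 with a filter of 10 UMIs only and 691 at 1.5-fold. The genes lower, 466, were 121, 111, 112, 1799 and 1444 in the same order. In 2 comparisons chosen after seeing the data, of cells with at least 8000 UMIs and of cartilage-rich cells, 615 and 213 were higher and 1749 and 91 lower. Cells of at least 8000 UMIs were not matched for cartilage genes. The gate genes had medians of 169.5 per 10000 UMIs in these *Col10a1* cells and 10.6 in these *Col10a1*-0 chondrocytes, further apart than over all cells. The median log2 ratio of hypertrophy effectors, 1.78, was 1.74, 1.72 and 1.61 with a *Col10a1* gate of 2 UMIs, of 5 UMIs and by rate, 1.48 with a gate-gene sum of 10, 1.496 with the 2 SD limits, 1.84 without other markers, 1.25 as a mean over cells, 1.52 after thinning, 1.67 against cells with up to 2 UMIs, 2.04 in cells of 8000 UMIs and 1.08 in cartilage-rich cells. The median log2 ratio of cycling, -1.32, was -0.45 with the 2 SD limits, -0.57 as a mean over cells, -0.71 after thinning, -2.08 in cells of 8000 UMIs and -0.70 in cartilage-rich cells, here over the genes tested in the main comparison. Among values past 2-fold in the main comparison, the sign turned in cartilage-rich cells for the median log2 ratio of cartilage matrix, at -0.0088. It also turned for the log2 ratio of Scx, at 0.0045. Some values within 2-fold turned there too, such as that of *Cnmd*. The cause was not tested. The log2 ratio of Mki67 was within 2-fold under 6 alternatives, at -0.22 after thinning. Counting cartilage matrix, *Scx* and *Mki67* but not the medians of effectors and cycling genes, 47 values were past 2-fold in the main comparison. Of these, 45 kept their direction and 28 stayed past 2-fold under every alternative run. Some were genes picked for the largest or smallest ratio in these same cells, so the tallies are no separate check.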
